A study of Mus musculus with 15 samples.

Results

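Axon guidance ligands and receptors are described here across cultured cells, allograft tumors and normal lung of the mouse. The genes were taken by symbol, with no measured value used in the choice: the ephrins (Efna and Efnb), the Eph receptors (Epha and Ephb), the semaphorins of classes 3 to 7, the plexins and neuropilins, the Slits and Robos, the netrins, and the netrin receptors of the Unc5 family with Dcc and neogenin (Neo1). These symbols matched 70 of the 55359 genes in the expression table, namely 8 ephrins, 14 Eph receptors, 20 semaphorins, 11 plexins and neuropilins, 3 Slits, 4 Robos and 10 netrins and netrin receptors.

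The study sequenced 15 samples, which form 5 groups with 3 samples each. The line 46LCNEC_cell grew attached to the dish and came from a large cell neuroendocrine carcinoma (LCNEC) raised by an adenovirus carrying Cre under the CMV promoter (Ad-CMVcre), whereas 57SCLC_cell grew as floating aggregates and came from a small cell lung carcinoma (SCLC) raised by Cre under the keratin 5 promoter (Ad-K5cre). Both viruses were given to QKO mice, whose alleles include floxed Rb1, floxed Trp53 and a null Rbl1. The groups 46LCNEC_allo and 57SCLC_allo were tumors grown from these lines under the skin of immunocompetent syngeneic QKO mice, and Lung was normal lung of littermates of the mice that carried the allografts. The ages of the mice were not given in the sources used here. Each tumor type was represented by 1 line, and the lines were used at different passage numbers. Tumor type, the individual tumor, the promoter of Cre, the mode of growth and the passage number therefore cannot be told apart. The cell samples were 3 dishes of 46LCNEC or 3 flasks of 57SCLC, and their p-values therefore measure only the spread between cultures of a line.

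Axon guidance molecules steer growing nerve fibers and blood vessels by attraction and repulsion. Netrins are secreted cues that attract through Dcc and neogenin and repel through Unc5 receptors, Slits repel through Robos, and semaphorins act on plexins, with neuropilins as co-receptors for most class 3 members. Ephrins are bound to the membrane and signal with Eph receptor tyrosine kinases on the neighboring cell in both directions. In the lung and its vessels many of these genes are used outside the nervous system, for instance Robo4, Ephb4, Efnb2, Nrp1 and Plxnd1 in endothelial cells.

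The values are normalized read counts, that is, reads per gene divided by the size factor of the sample. The samples held between 9480244 and 44876572 reads, with a median of 26502525. Over all genes with enough reads, the chi-square per degree of freedom between replicates 1 and 2 of 57SCLC_cell was 2.80. Replicate 3 of 57SCLC_cell differed from them by 143.5 and 126.7, and thus stood apart over many genes. Pairs of replicates gave 7.28 to 22.8 in 46LCNEC_cell and 92.6 to 133.3 in 46LCNEC_allo. A gene was tested where at least 3 of the 6 samples compared had at least 10 normalized counts, and it was called at an adjusted p of at most 0.01 and a difference of at least 2-fold. Means are given ± SD with n = 3, and log2 fold changes ± SE on the scale of log2(normalized count + 1). A gene with at most 3 reads in every sample of a group was treated as not detected there, a floor that covers counting error only. A difference given as at least so many fold sets the mean of the other group against the average of this floor. Single samples can lie below it. The neuroendocrine markers Chga, Syp, Scg3 and Insm1 summed to 39304 to 54220.1 in 57SCLC_cell and 32249 to 43738 in 57SCLC_allo, but to 16.1 to 30.02 in 46LCNEC_cell and 13.7 to 38.7 in 46LCNEC_allo, below the 149 to 158 of Lung. These transcripts were thus near 0 in the samples labelled LCNEC. Lung epithelial markers summed to 297809.6 to 401075 in Lung and to at most 187 in the other samples.

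The guidance genes differed widely between the lines, with more members called lower than higher in 57SCLC. Of 62 members tested in cultured cells, 21 were higher and 30 lower in 57SCLC_cell, which is 82.3% of those tested against 46.1% of all genes tested in that comparison. In the same comparison 23.9% of all genes were higher and 22.2% lower. Of these 62, 7 passed the filter on low values through 1 line only, and the filter thus fixed the direction of these 7. They were Efna1, Epha4, Ephb1, Sema6a, Robo2, Dcc and Unc5c, and their p-values in cells give no support to the direction. Between the allografts, 11 of 63 members were higher and 23 lower in 57SCLC_allo, or 54.0% against 30.4% of all genes, of which 16.1% were higher and 14.2% lower. Of these 63, 1 passed the filter through 1 line only, namely Dcc, whose direction was thus fixed. The median log2 fold change of the members was -0.78 in cells and -0.17 in allografts, against 0.00 and 0.01 for all genes. The count of 11 fell to 5 without 57SCLC_allo replicate 1 and to 6 without 57SCLC_allo replicate 3. Scaled by library size alone, the balance in cells was nearly even, with 25 members higher and 27 lower, and between the allografts 12 were higher and 22 lower. Under that scaling 60.2% of all genes called in cells were higher in place of 51.8%, and 64.7% in place of 53.1% between the allografts.

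**Figure D1:**
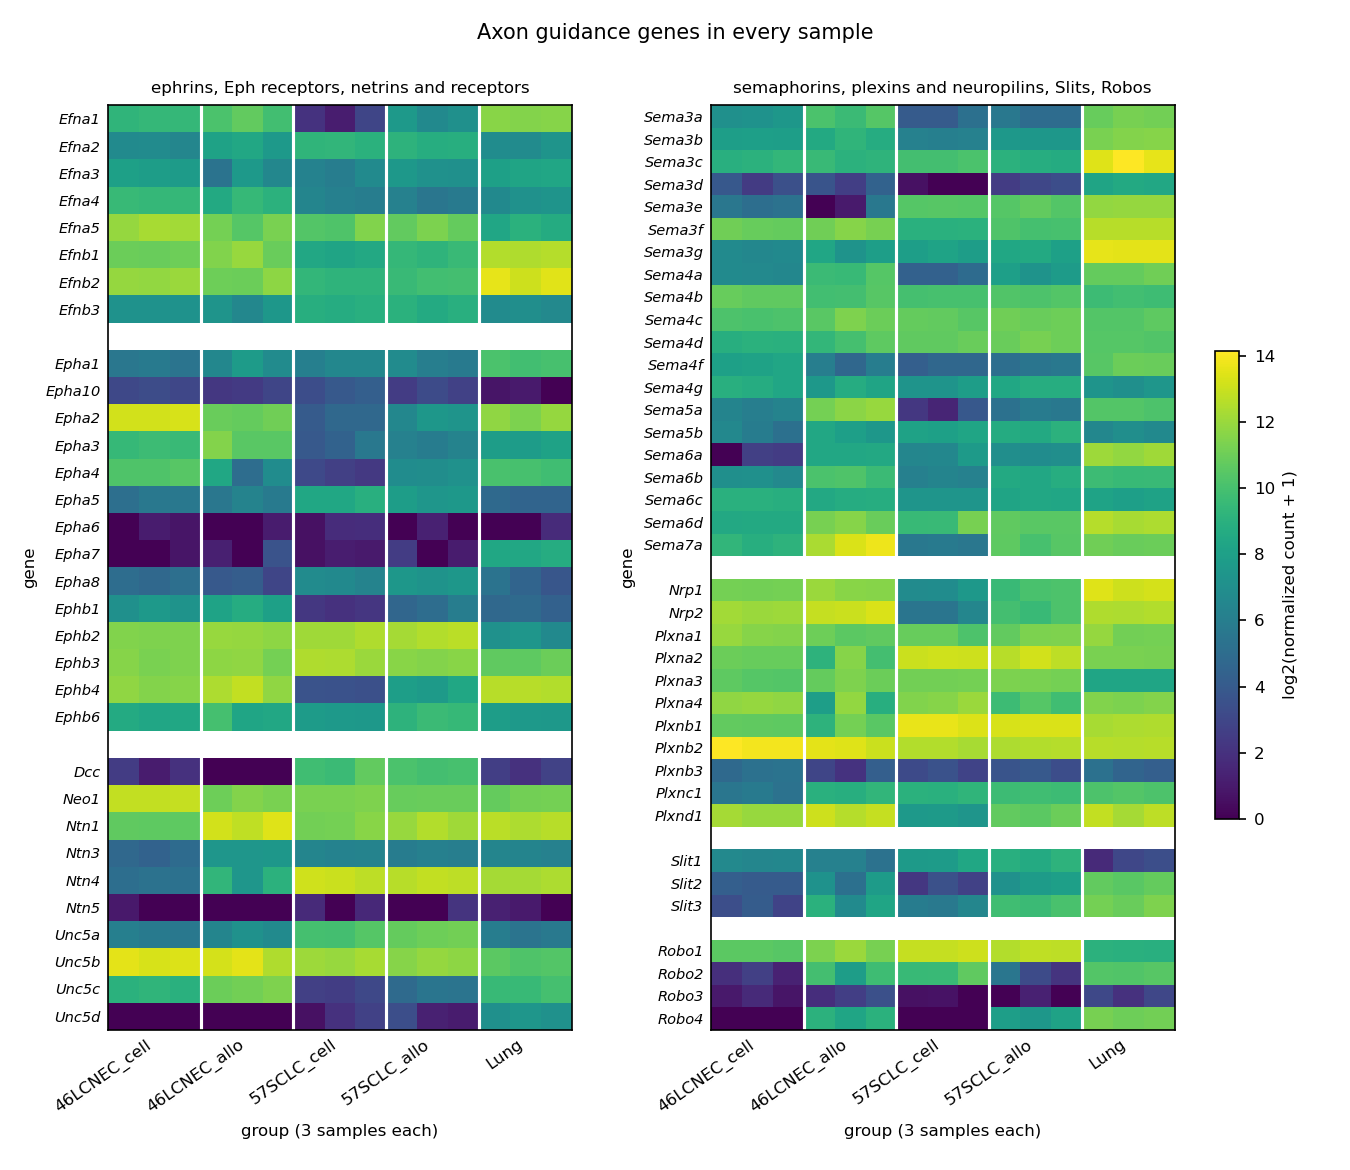
Level of each of the 70 axon guidance genes (rows, by family) in each of the 15 samples (columns, 3 per group) as log2(normalized count + 1), from dark (0) to bright (highest). Epha2, Ephb4, Nrp2 and Unc5c were darker in the 57SCLC samples than in the 46LCNEC samples, and Dcc, Unc5a and Sema3e showed the opposite.

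Of the 62 members tested in both settings, 30 were called in the same direction in cells and in allografts. The share of all genes called in both settings, alike or opposed, was not counted. The 19 lower in 57SCLC were the ephrins Efna1, Efna4, Efnb1 and Efnb2, the receptors Epha2, Epha3, Ephb1 and Ephb4, the semaphorins Sema3a, Sema3b, Sema3f, Sema4a, Sema5a and Sema7a, the co-receptors Nrp1 and Nrp2, Plxnd1, Unc5b and Unc5c. The 11 higher in 57SCLC were Efnb3, Epha5, Epha8, Sema3e, Plxna2, Plxnb1, Slit1, Robo1, Ntn4, Unc5a and Dcc. Robo2, Sema6a and Ntn3 were called in opposite directions, higher in 57SCLC cells and lower in 57SCLC allografts. For Robo2 and Sema6a the filter fixed the direction in cells. A further 18 were called in cells but not in allografts, 11 of them lower and 7 higher in 57SCLC_cell, and Sema6b was called in allografts alone. The 10 called in neither were Epha1, Ephb2, Ephb3, Ephb6, Ntn1, Plxna3, Plxna4, Sema3c, Sema4b and Sema4c.

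Netrin receptors differed between the lines in both directions, with Dcc and Unc5a higher and Unc5b and Unc5c lower in 57SCLC. Dcc had 4.69, 1.10 and 3.08 normalized counts in 46LCNEC_cell, 0 in each 46LCNEC_allo sample, 886, 803 and 1735 in 57SCLC_cell, 1125, 968 and 1026 in 57SCLC_allo and 5.23, 2.99 and 5.85 in Lung. Dcc, the attractive netrin receptor, was thus near 0 in every 46LCNEC and Lung sample and between 803 and 1735 in every 57SCLC sample. It was not detected in 46LCNEC_allo, so that 57SCLC_allo was at least 298-fold higher, and in cells the log2 fold change was 8.20 ± 0.43 (SE; adjusted p = 7.62e-07, limma). The filter on low values fixed the direction of Dcc in both settings. Unc5a had 68.5, 55.2 and 49.97 normalized counts in 46LCNEC_cell, 84.8, 141 and 107 in 46LCNEC_allo, 985, 970.4 and 1351 in 57SCLC_cell, 1759, 2043 and 2279 in 57SCLC_allo and 63.5, 42.9 and 51.5 in Lung. The groups of the lines did not overlap for this repellent netrin receptor, with log2 fold changes of 4.22 ± 0.18 in cells and 4.20 ± 0.22 in allografts (SE; adjusted p = 2.5e-07 and 1.9e-05, limma). Its paralog Unc5c, also a repellent netrin receptor, had 514, 599 and 498 normalized counts in 46LCNEC_cell, 1962, 2249 and 2703 in 46LCNEC_allo, 5.45, 4.82 and 7.29 in 57SCLC_cell, 28.7, 43.9 and 41.99 in 57SCLC_allo and 735, 740.0 and 1011 in Lung. Every 46LCNEC sample lay above every 57SCLC sample, and the log2 fold change was -6.31 ± 0.20 in cells and -5.89 ± 0.23 in allografts (SE; adjusted p = 5.64e-08 and 8.66e-06, limma). On GRCm39 the gene Unc5a spans chr13:55096518-55153833 and Unc5c chr3:141170977-141540685.

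Unc5a and Unc5c are paralogs that moved in opposite directions. Sema7a was the 1 member lower in 57SCLC in both settings whose promoter held the letters CAGCTG. The promoters of these 3 genes are shown. They run from 250 bases before to 50 after the start of the gene, 5′ to 3′ on the strand of the gene, as given by RefSeq for GRCm38.p6. Capitals mark the letters GGGCGG or its complement CCGCCC, which also overlap each other in Unc5a, and CAGCTG.
Unc5a, chr13:54949161-54949460, plus strand: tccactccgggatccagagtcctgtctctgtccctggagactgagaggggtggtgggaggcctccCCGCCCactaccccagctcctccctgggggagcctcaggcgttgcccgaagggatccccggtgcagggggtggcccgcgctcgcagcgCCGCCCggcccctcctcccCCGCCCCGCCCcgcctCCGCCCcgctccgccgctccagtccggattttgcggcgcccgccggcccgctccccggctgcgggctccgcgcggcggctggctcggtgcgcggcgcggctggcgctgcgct
Unc5c, chr3:141465314-141465613, plus strand: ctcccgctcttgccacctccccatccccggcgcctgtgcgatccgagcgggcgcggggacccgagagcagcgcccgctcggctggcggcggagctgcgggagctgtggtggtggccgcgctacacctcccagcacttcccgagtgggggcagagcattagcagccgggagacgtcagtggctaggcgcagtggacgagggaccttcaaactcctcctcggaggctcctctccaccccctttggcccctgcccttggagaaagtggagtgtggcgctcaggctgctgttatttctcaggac
Sema7a, chr9:57939862-57940161, plus strand: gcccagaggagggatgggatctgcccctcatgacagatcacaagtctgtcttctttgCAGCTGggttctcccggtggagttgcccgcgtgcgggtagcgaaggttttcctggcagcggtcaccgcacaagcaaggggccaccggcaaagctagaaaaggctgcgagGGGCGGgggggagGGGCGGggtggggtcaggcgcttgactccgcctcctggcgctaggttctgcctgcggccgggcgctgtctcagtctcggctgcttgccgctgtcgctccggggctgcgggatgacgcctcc
The Unc5a promoter held 5 matches to GGGCGG on either strand and was 78.3% G or C, the Unc5c promoter held 0 matches at 68.3%, and the Sema7a promoter held 2 at 67.3%. The promoters of Sema3e and Epha3 were extracted with these, held 2 and 0 matches and are not shown. GGGCGG stood in 71.1% of 76 promoters of the 60 members matched, and in 35.7% of all 32851 promoters of the table. CAGCTG, an E-box, was found in 15.8% of the members' promoters and 16.3% of all. Of the 8 promoters of members higher in 57SCLC in both settings 0 held it, and of 21 promoters of members lower in 57SCLC 1 did, that of Sema7a. TGANTCA, where N is any base, stood in 3.9% of the members' promoters and 7.8% of all, and in 0 of those 8 and 21. GGGCGG stood in 87.5% of those 8 and 66.7% of those 21. A match is a run of letters only, and GGGCGG and Sema7a were chosen after the other motifs had been counted.

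Netrins and the remaining receptors followed several patterns. Ntn4 had 33.8, 39.7 and 37.7 normalized counts in 46LCNEC_cell, 638, 169 and 535 in 46LCNEC_allo, 8786, 8280.1 and 6693 in 57SCLC_cell, 6334, 7445 and 6764 in 57SCLC_allo and 4869, 4881 and 5413 in Lung. Ntn4, a secreted netrin of basement membranes, was low in cultured 46LCNEC and high in both 57SCLC groups, with log2 fold changes of 7.69 ± 0.13 in cells and 4.14 ± 0.47 in allografts (SE; adjusted p = 4.15e-09 and 0.00043, limma). The difference in allografts was 3.54 to 4.50 when 1 sample was left out in turn, the lowest without 46LCNEC_allo replicate 2. The gene lies at chr10:93476543-93583069 of GRCm39. Ntn3 had 26.3, 20.97 and 29.98 normalized counts in 46LCNEC_cell, 168, 173 and 181 in 46LCNEC_allo, 85.1, 75.4 and 78.7 in 57SCLC_cell, 59.8, 69.4 and 64.7 in 57SCLC_allo and 85.96, 80.8 and 73.7 in Lung. Its log2 fold change was 1.61 ± 0.20 in cells and -1.42 ± 0.21 in allografts. Ntn1 had 1652, 1616 and 1592 normalized counts in 46LCNEC_cell, 9147, 7169 and 11096 in 46LCNEC_allo, 2235, 2339 and 3175 in 57SCLC_cell, 3916, 5914 and 4527 in 57SCLC_allo and 6664, 5405 and 6410.3 in Lung. Ntn1, the classical netrin, did not reach 2-fold in either setting, at 0.66 in cells and -0.93 in allografts on the log2 scale.

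Unc5b had 11917, 10058 and 10933 normalized counts in 46LCNEC_cell, 9724, 12139 and 5710.5 in 46LCNEC_allo, 4260.3, 4019 and 4939 in 57SCLC_cell, 2999, 3805 and 3370.3 in 57SCLC_allo and 1516, 1213 and 1302 in Lung. Unc5b, a netrin receptor also found in endothelial cells, was highest in the 46LCNEC groups, and the log2 fold change was -1.32 ± 0.10 in cells and -1.38 ± 0.27 in allografts (SE; adjusted p = 8.26e-06 and 0.00501, limma). The call in allografts was lost without 46LCNEC_allo replicate 1 or 57SCLC_allo replicates 1, 2 or 3 (log2 fold change -1.46 to -1.29, adjusted p = 0.0168 to 0.0258, limma). Neo1 had 7428, 7463 and 7597 normalized counts in 46LCNEC_cell, 2109.9, 2921 and 2512 in 46LCNEC_allo, 2477, 2490.2 and 2666 in 57SCLC_cell, 1834, 1951 and 1939 in 57SCLC_allo and 1787, 2219 and 2303 in Lung. Neogenin stood apart in 46LCNEC_cell, where all 3 dishes exceeded every other sample of the series, and was lower in 57SCLC_cell with a difference of -1.56 ± 0.07 (SE; adjusted p = 2.2e-07, limma) on the log2 scale. Unc5d had 0 normalized counts in each 46LCNEC_cell sample, 0 in each 46LCNEC_allo sample, 0.545, 3.02 and 5.73 in 57SCLC_cell, 9.58, 1.42 and 1.13 in 57SCLC_allo and 135, 169 and 142 in Lung. Unc5d was not detected in either 46LCNEC group and was too low to be tested between the lines.

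**Figure D2:**
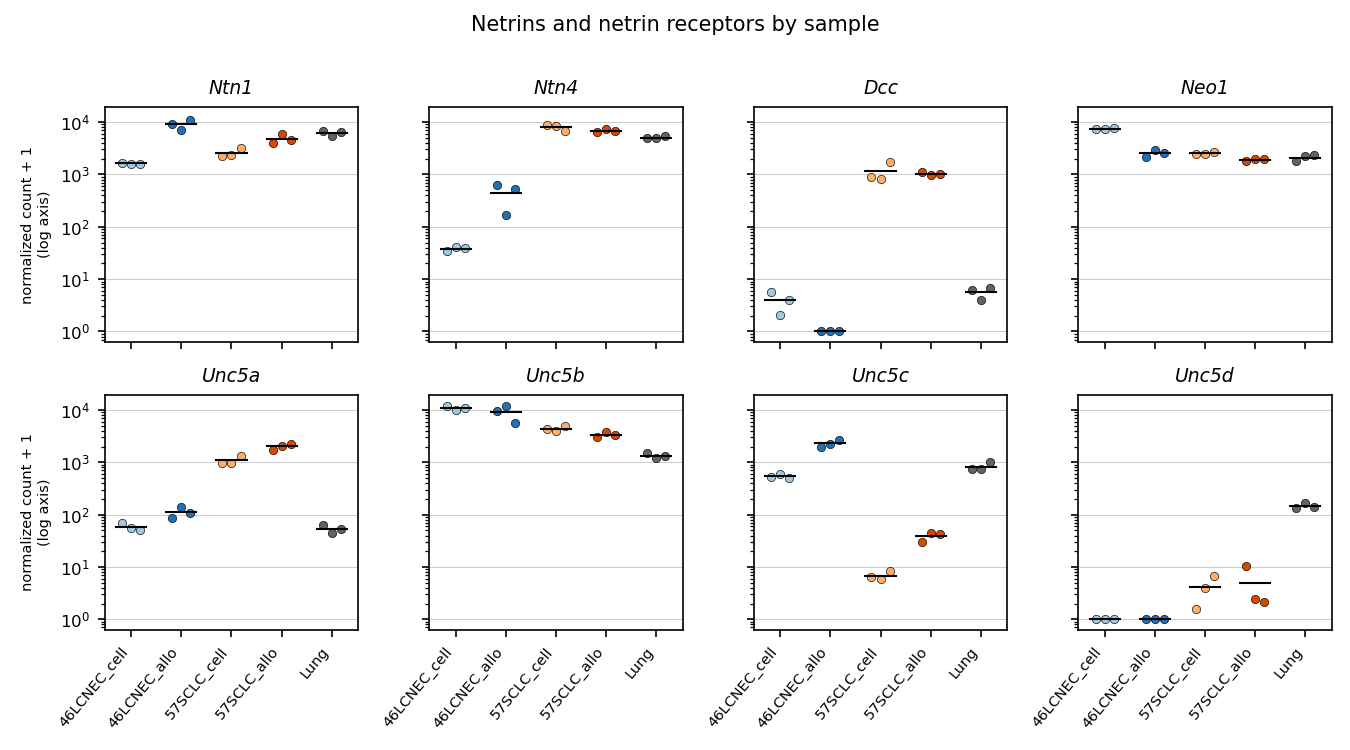
Normalized count + 1 (log axis) of netrins and netrin receptors in each sample (points) of the 5 groups, with the mean of the 3 samples as a line. Dcc and Unc5a were high in the 57SCLC groups alone, Unc5c was high in 46LCNEC and Lung, and Ntn4 was high in 57SCLC and Lung.

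Most ephrins were lower in 57SCLC in culture, and 4 of 8 were lower in allografts. In cells all 8 ephrins were called, 6 lower and 2 higher in 57SCLC_cell, and between allografts 4 were lower and 1 was higher. Of all genes, 46.1% were called in cells and 30.4% between allografts. Efna1 had 614, 684 and 692 normalized counts in 46LCNEC_cell, 1115, 1719 and 935 in 46LCNEC_allo, 3.27, 1.206 and 6.77 in 57SCLC_cell, 203, 103 and 138 in 57SCLC_allo and 3220.0, 2917 and 2999 in Lung. This A-class ligand of Epha2 was near 0 in cultured 57SCLC and higher in every other group, with log2 fold changes of -7.31 ± 0.42 in cells and -3.08 ± 0.32 in allografts (SE; adjusted p = 1.27e-06 and 0.000286, limma). Efna4 had 740.3, 678 and 691 normalized counts in 46LCNEC_cell, 391, 715 and 552 in 46LCNEC_allo, 85.1, 69.96 and 61.5 in 57SCLC_cell, 74.2, 46.7 and 53.3 in 57SCLC_allo and 103, 144 and 156 in Lung. Only the 46LCNEC groups exceeded 156 normalized counts, and the log2 fold change was -3.28 in cells and -3.21 in allografts. About 10.3% of the exon bases of Efna4 overlap a transcript on the opposite strand, and reads of the pair cannot be told apart without a strand setting.

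The transmembrane B-class ligands Efnb1 and Efnb2 were highest in Lung. Efnb2 had 3761, 3749 and 4180.0 normalized counts in 46LCNEC_cell, 2079, 1992 and 3428 in 46LCNEC_allo, 668, 590.4 and 584 in 57SCLC_cell, 764, 933 and 970.2 in 57SCLC_allo and 12651, 8681 and 11481 in Lung. The 46LCNEC samples lay between Lung and 57SCLC, and the log2 fold change between lines was -2.66 ± 0.09 in cells and -1.45 ± 0.23 in allografts (SE; adjusted p = 5.59e-08 and 0.00175, limma). Its call in allografts was lost without 57SCLC_allo replicate 1 (log2 fold change -1.35, adjusted p = 0.0107, limma). Efnb1 had 2023, 1905 and 2107 normalized counts in 46LCNEC_cell, 2838, 3950.2 and 1936 in 46LCNEC_allo, 353, 302 and 364 in 57SCLC_cell, 675, 587 and 775 in 57SCLC_allo and 5794, 5527 and 5996 in Lung. The same order was seen for Efnb1, with -2.57 in cells and -2.05 in allografts. Efnb3 had 144, 146 and 145 normalized counts in 46LCNEC_cell, 156, 93.7 and 178 in 46LCNEC_allo, 463, 437 and 485 in 57SCLC_cell, 529, 392 and 487 in 57SCLC_allo and 114, 124 and 101 in Lung. Efnb3 was the ephrin higher in 57SCLC in both settings, by 1.66 and 1.75 on the log2 scale, and its call in allografts was lost without 57SCLC_allo replicates 1 or 3 (log2 fold change 1.66 to 1.72, adjusted p = 0.0126, limma). Efna2 had 109, 113 and 87.6 normalized counts in 46LCNEC_cell, 282, 356 and 190.3 in 46LCNEC_allo, 603, 627 and 512 in 57SCLC_cell, 572, 454 and 469 in 57SCLC_allo and 118, 113 and 156 in Lung. Efna2 was higher in 57SCLC_cell by 2.49, while in allografts the log2 fold change of 0.89 was not called (adjusted p = 0.0224, limma). Efna5 had means of 4502 ± 616 in 46LCNEC_cell and 1798 ± 931 in 57SCLC_cell, and the call of -1.43 held in 1 of the 6 fits that left out 1 sample and was lost without 46LCNEC_cell replicates 1, 2 or 3 or 57SCLC_cell replicates 1 or 2 (log2 fold change -1.54 to -1.19, adjusted p = 0.0104 to 0.017, limma).

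Eph receptors held 2 of the 3 largest differences between the cultured lines, those of Epha2 and Ephb4. Of 11 tested in cells, 5 were lower and 2 higher in 57SCLC_cell, and of 11 tested in allografts 4 were lower and 2 higher. This is 63.6% called in cells and 54.5% in allografts, against 46.1% and 30.4% of all genes. For Epha4 and Ephb1 the filter on low values fixed the direction in cells. Epha2 had 9362, 9134 and 9895 normalized counts in 46LCNEC_cell, 1891, 1765 and 2163 in 46LCNEC_allo, 15.8, 25.9 and 26.6 in 57SCLC_cell, 93.4, 176 and 158 in 57SCLC_allo and 3511, 2599 and 3886 in Lung. Epha2, an Eph receptor common in epithelia, was highest in 46LCNEC_cell and at most 176 in all 57SCLC samples, with log2 fold changes of -8.67 ± 0.19 in cells and -3.81 ± 0.25 in allografts (SE; adjusted p = 1.04e-08 and 4.51e-05, limma). Ephb4 had 3558, 2957 and 3061 normalized counts in 46LCNEC_cell, 5338, 7301 and 3494 in 46LCNEC_allo, 11.5, 10.9 and 9.90 in 57SCLC_cell, 247, 211 and 338 in 57SCLC_allo and 6302, 6415 and 5739 in Lung. Ephb4, the receptor of Efnb2 on veins, was high in cultured 46LCNEC, in the 46LCNEC tumors and in Lung and at most 11.5 in cultured 57SCLC, with -8.09 ± 0.13 in cells and -4.30 ± 0.30 in allografts (SE; adjusted p = 4.24e-09 and 5.28e-05, limma). On GRCm39 the genes Epha2 and Ephb4 span chr4:141028540-141056695 and chr5:137348274-137376931. Of the 6 endothelial markers listed, Cdh5, Emcn and Tie1 were at or under 3 reads in 46LCNEC_cell, while Kdr had 274 to 316, Tek 49.2 to 68.4 and Pecam1 46.1 to 66.2 normalized counts there. Their part in the level of Ephb4 was not tested. Epha4 had 1219, 1196 and 1422 normalized counts in 46LCNEC_cell, 343, 32.6 and 118 in 46LCNEC_allo, 7.64, 5.43 and 4.17 in 57SCLC_cell, 115, 122 and 139.6 in 57SCLC_allo and 1086, 1052 and 897 in Lung. Epha4 was high in cultured 46LCNEC and in Lung and near 0 in cultured 57SCLC, a log2 fold change of -7.60 ± 0.22 (SE; adjusted p = 3.39e-08, limma). In the allografts the groups of the lines overlapped, and the difference was 0.18 ± 0.78 (SE; adjusted p = 0.861, limma).

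Epha3 had 699.9, 819 and 761 normalized counts in 46LCNEC_cell, 2898, 1496 and 1454 in 46LCNEC_allo, 14.7, 21.1 and 49.5 in 57SCLC_cell, 71.8, 59.5 and 80.6 in 57SCLC_allo and 235, 221 and 279.8 in Lung. Epha3 was higher in every 46LCNEC sample than in any 57SCLC or Lung sample, with log2 fold changes of -4.87 ± 0.39 in cells and -4.70 ± 0.30 in allografts (SE; adjusted p = 9.18e-06 and 3.87e-05, limma). Ephb1 had 135, 198 and 151 normalized counts in 46LCNEC_cell, 295, 424 and 261 in 46LCNEC_allo, 3.82, 3.02 and 3.65 in 57SCLC_cell, 23.9, 32.6 and 63.5 in 57SCLC_allo and 26.2, 28.9 and 19.9 in Lung. Ephb1 was likewise highest in the 46LCNEC groups, with -5.16 ± 0.23 in cells and -3.09 ± 0.41 in allografts. Epha8 had 32.8, 26.5 and 34.6 normalized counts in 46LCNEC_cell, 14.6, 16.8 and 6.64 in 46LCNEC_allo, 112, 104 and 79.7 in 57SCLC_cell, 179.5, 154 and 176 in 57SCLC_allo and 40.4, 22.9 and 12.9 in Lung. This receptor, known from the developing brain, was higher in 57SCLC by 1.62 in cells and 3.73 in allografts, without overlap. Epha5 had a mean of 389 ± 86.2 in 57SCLC_cell, 198 ± 32.2 in 57SCLC_allo and at most 60.3 in the other groups, with 3.10 and 1.72. Its call in allografts was lost without 57SCLC_allo replicates 1 or 3 (log2 fold change 1.59 to 1.76, adjusted p = 0.0127 to 0.0128, limma). Ephb2 and Ephb3, which guide the position of cells in the intestinal epithelium, were high in both lines and differed by less than 2-fold in cells, at 0.82 and 0.88.

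**Figure D3:**
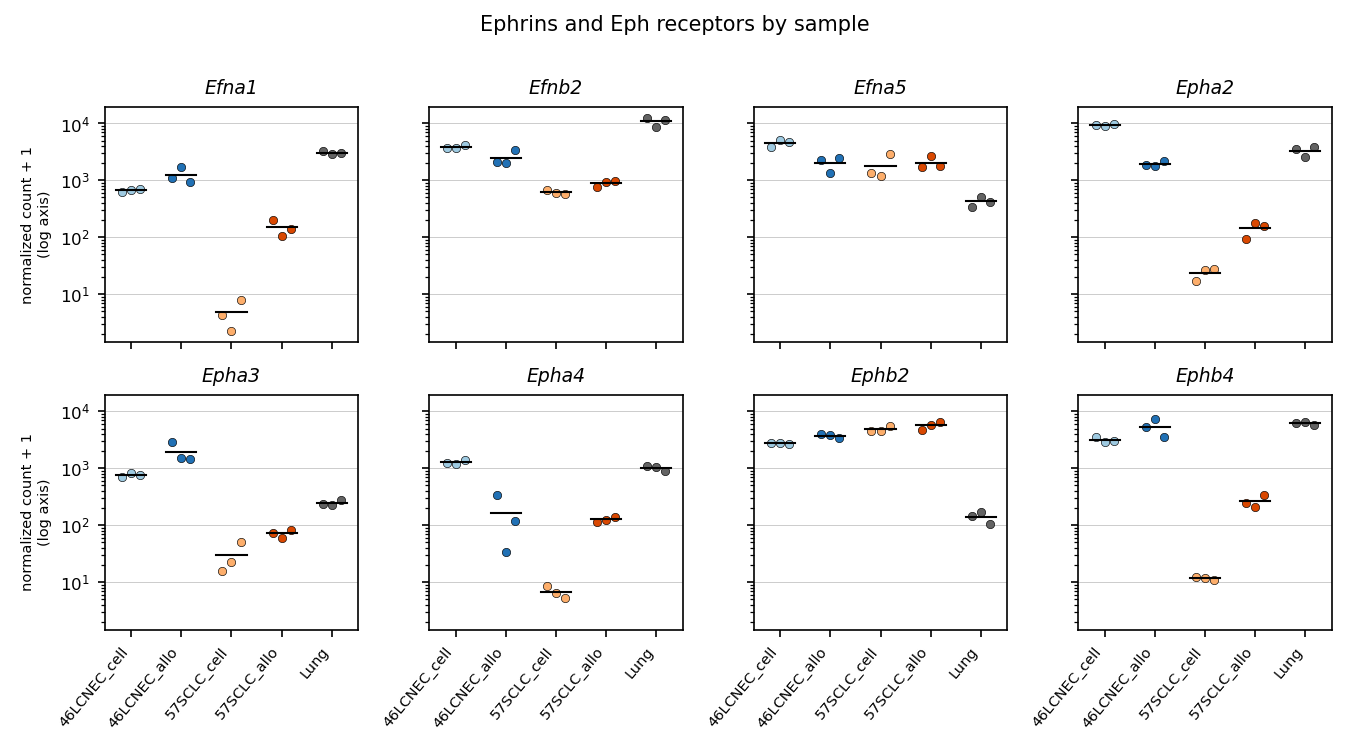
Normalized count + 1 (log axis) of 3 ephrins and 5 Eph receptors in each sample (points) of the 5 groups, with the group mean as a line. Epha2, Ephb4 and Efna1 were lowest in 57SCLC_cell, Epha3 was highest in the 46LCNEC groups, Epha4 overlapped between the allografts, and Ephb2 was higher in every tumor sample than in Lung.

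Semaphorins, the mostly repellent ligands of plexins, were lower in 57SCLC more often than higher. Of 19 tested in each setting, 9 were lower and 6 higher in 57SCLC_cell, and 8 were lower and 1 higher in 57SCLC_allo. This is 78.9% called in cells and 47.4% in allografts, against 46.1% and 30.4% of all genes. Sema7a had 627, 461 and 558 normalized counts in 46LCNEC_cell, 5216, 10195 and 14080.4 in 46LCNEC_allo, 49.1, 55.5 and 46.9 in 57SCLC_cell, 1589, 1039 and 1437 in 57SCLC_allo and 2121, 1891 and 2023 in Lung. Sema7a, which is anchored to the membrane by a lipid and also acts on immune cells, was highest in 46LCNEC_allo and lowest in 57SCLC_cell, with log2 fold changes of -3.41 ± 0.16 in cells and -2.77 ± 0.36 in allografts (SE; adjusted p = 4.21e-07 and 0.000818, limma). Sema5a had 80.7, 64.01 and 79.96 normalized counts in 46LCNEC_cell, 2356, 3297 and 3983 in 46LCNEC_allo, 3.82, 1.81 and 14.1 in 57SCLC_cell, 38.3, 58.04 and 49.9 in 57SCLC_allo and 1294, 1331 and 1186 in Lung. Every 46LCNEC sample lay above every 57SCLC sample, and the log2 fold change was -3.68 ± 0.56 in cells and -5.9998 ± 0.25 in allografts (SE; adjusted p = 0.000438 and 1.1e-05, limma). On GRCm39 Sema7a spans chr9:57847375-57870151 and Sema5a chr15:32244919-32696487. In cells the value of Sema5a ranged over -4.36 to -3.15 with 1 sample left out, the lowest value without 57SCLC_cell replicate 3. Sema3a had 138, 148 and 177 normalized counts in 46LCNEC_cell, 1105, 805 and 1345 in 46LCNEC_allo, 15.8, 15.7 and 35.95 in 57SCLC_cell, 50.3, 31.1 and 30.6 in 57SCLC_allo and 1857, 2430.5 and 2231 in Lung. Sema3a, the prototype secreted semaphorin, differed by -2.82 ± 0.33 in cells and -4.83 ± 0.29 in allografts.

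Sema3e had 46.9, 33.1 and 39.98 normalized counts in 46LCNEC_cell, 0, 1.05 and 48.7 in 46LCNEC_allo, 1386, 1399.8 and 1337 in 57SCLC_cell, 1338, 1703 and 1313 in 57SCLC_allo and 3714, 3796 and 3861 in Lung. Sema3e, the class 3 ligand that binds Plxnd1 directly, was the semaphorin higher in 57SCLC in both settings, with 5.08 ± 0.15 in cells and 8.27 ± 1.36 in allografts (SE; adjusted p = 3.53e-08 and 0.0022, limma). One 46LCNEC tumor had 48.7 and the other two at most 1.05, and the log2 fold change in allografts was 7.16 to 9.98 with 1 sample left out. The call was lost without 57SCLC_allo replicates 1, 2 or 3 (log2 fold change 8.15 to 8.34, adjusted p = 0.0113 to 0.0129, limma). Sema6a had 0, 5.52 and 4.61 normalized counts in 46LCNEC_cell, 352, 360.0 and 369 in 46LCNEC_allo, 87.3, 94.1 and 204 in 57SCLC_cell, 124, 115 and 125 in 57SCLC_allo and 4374, 3707 and 4512 in Lung. Sema6a, a transmembrane ligand of Plxna2 and Plxna4, was higher in 57SCLC than in 46LCNEC cells, at 5.17 ± 0.72 but lower in 57SCLC than in 46LCNEC allografts, at -1.56 ± 0.17 on the log2 scale. The value in cells was 4.31 to 5.66 with 1 sample left out, the lowest without 46LCNEC_cell replicate 1. Sema4f had 266, 277 and 331 normalized counts in 46LCNEC_cell, 64.9, 25.3 and 61.95 in 46LCNEC_allo, 18.5, 25.3 and 25.5 in 57SCLC_cell, 33.5, 43.9 and 48.8 in 57SCLC_allo and 1388, 1993 and 1953 in Lung. Its difference was -3.61 ± 0.19 (SE; adjusted p = 9.09e-07, limma) in cells and -0.17, not called, in allografts.

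Sema4a had 107, 98.2 and 93.8 normalized counts in 46LCNEC_cell, 809, 738 and 1358 in 46LCNEC_allo, 19.6, 19.9 and 29.7 in 57SCLC_cell, 254, 151 and 214 in 57SCLC_allo and 1788, 1797 and 2174 in Lung. Sema4a was higher in each 46LCNEC group than in the 57SCLC group of the same setting, with -2.09 in cells and -2.20 in allografts. Sema5b had 96.6, 60.7 and 36.9 normalized counts in 46LCNEC_cell, 352, 252 and 180.3 in 46LCNEC_allo, 287, 258 and 317 in 57SCLC_cell, 421, 381 and 541 in 57SCLC_allo and 93.4, 128 and 102 in Lung. Sema5b was higher in 57SCLC_cell by 2.23 and not called in allografts, at 0.81. Sema6d had 371, 387 and 391 normalized counts in 46LCNEC_cell, 2449, 3012 and 1955 in 46LCNEC_allo, 746, 762 and 2421 in 57SCLC_cell, 1642, 1471 and 1451 in 57SCLC_allo and 6072, 5094 and 5455 in Lung. Replicate 3 of 57SCLC_cell, which stood apart over many genes, had 2421 normalized counts of Sema6d against 746 and 762 in replicates 1 and 2. The Sema6d call of 1.54 in cells was lost without 46LCNEC_cell replicates 1, 2 or 3 or 57SCLC_cell replicate 3 (log2 fold change 0.98 to 1.55, adjusted p = 2.75e-05 to 0.0411, limma). Sema3b and Sema3f, secreted semaphorins, were lower in 57SCLC in both settings, at -1.78 and -1.89 in cells and -1.36 and -1.209 in allografts. Sema4g, Sema6c, Sema3g and Sema4d were called in cells alone, the first pair lower in 57SCLC at -1.18 and -1.55 and the second pair higher at 1.33 and 1.80. Sema6b was called in allografts alone, at -1.38, with means of 1043 ± 215 in 46LCNEC_allo and 397 ± 49.3 in 57SCLC_allo. Reads of Sema4d and Sema4g may include reads of Secisbp2 and Mrpl43, which cover 13.7% and 12.7% of their exon bases on the opposite strand.

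Neuropilins and plexins, the receptors of semaphorins, showed opposite patterns within the family. Nrp2 had 4612, 4131 and 4355 normalized counts in 46LCNEC_cell, 7653, 8339 and 10175 in 46LCNEC_allo, 43.6, 44.03 and 87.5 in 57SCLC_cell, 958, 772 and 1174 in 57SCLC_allo and 5604, 5313 and 5895 in Lung. Nrp2, also a co-receptor of vascular growth factors, was lowest in 57SCLC_cell and higher in every 46LCNEC sample than in any 57SCLC sample, with log2 fold changes of -6.28 ± 0.25 in cells and -3.18 ± 0.18 in allografts (SE; adjusted p = 1.82e-07 and 2.6e-05, limma). Nrp1 had 2336, 2224 and 2353 normalized counts in 46LCNEC_cell, 4147, 3186 and 3093 in 46LCNEC_allo, 113, 116 and 182 in 57SCLC_cell, 778, 1076 and 1148 in 57SCLC_allo and 11001, 8703 and 9768 in Lung. Nrp1 followed the same order between lines, with -4.10 ± 0.18 and -1.80 ± 0.19, and was highest in Lung. Plxnd1 had 4846, 3915 and 4029 normalized counts in 46LCNEC_cell, 8626, 5997 and 7753 in 46LCNEC_allo, 202, 209.9 and 164 in 57SCLC_cell, 1740.3, 1544 and 1990.4 in 57SCLC_allo and 7279, 4855 and 6746 in Lung. Plxnd1, the receptor of Sema3e, was likewise lower in 57SCLC, with -4.47 ± 0.13 in cells and -2.08 ± 0.16 in allografts (SE; adjusted p = 3.14e-08 and 9.19e-05, limma). On GRCm39 Nrp2 spans chr1:62742444-62857854 and Plxnd1 chr6:115931772-115972286. The ligand Sema3e and its receptor Plxnd1 thus differed between the lines in opposite directions.

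Plxnb1 had 1739, 1621 and 1604 normalized counts in 46LCNEC_cell, 568, 2302 and 1456 in 46LCNEC_allo, 12912, 12943 and 10949 in 57SCLC_cell, 9989, 10192 and 10454 in 57SCLC_allo and 5028, 5385 and 5719.6 in Lung. Plxnb1, a receptor of Sema4d, was higher in every 57SCLC sample than in any 46LCNEC or Lung sample, with log2 fold changes of 2.89 ± 0.09 in cells and 3.04 ± 0.47 in allografts (SE; adjusted p = 4.22e-08 and 0.0016, limma). Its call in allografts was lost without 57SCLC_allo replicate 1 (log2 fold change 3.06, adjusted p = 0.0101, limma). Plxna2 had 1994, 1817 and 1874 normalized counts in 46LCNEC_cell, 554, 2984 and 957 in 46LCNEC_allo, 8271, 8824 and 8469 in 57SCLC_cell, 6399, 9156 and 6927 in 57SCLC_allo and 2494, 2509 and 2389 in Lung. Plxna2 was also without overlap between the lines, with 2.17 ± 0.07 in cells and 2.67 ± 0.57 in allografts (SE; adjusted p = 5.35e-08 and 0.00702, limma), but the 46LCNEC tumors varied over 554 to 2984 and the call in allografts was lost without 46LCNEC_allo replicates 1 or 3 or 57SCLC_allo replicates 1, 2 or 3 (log2 fold change 2.13 to 2.77, adjusted p = 0.0144 to 0.0324, limma). Without 46LCNEC_allo replicate 2 it was 3.34. Plxnc1 had 45.04, 54.1 and 39.2 normalized counts in 46LCNEC_cell, 495, 460.0 and 627 in 46LCNEC_allo, 512, 504 and 616 in 57SCLC_cell, 816, 909 and 820.4 in 57SCLC_allo and 1169, 1316 and 1187 in Lung. Plxnc1, the receptor of Sema7a, was higher in 57SCLC_cell by 3.54 ± 0.17 (SE; adjusted p = 4.56e-07, limma) and differed by 0.70 in allografts. Plxna4 also varied among the 46LCNEC tumors, at 238, 3723 and 459, and was called in neither setting. Plxna1, Plxnb2 and Plxnb3 were lower in 57SCLC_cell, at -1.06, -1.52 and -1.96, and not called in allografts. The Plxna1 call was lost without 46LCNEC_cell replicate 1 or 57SCLC_cell replicate 3 (log2 fold change -0.91 to -0.83, adjusted p = 0.00127 to 0.00998, limma).

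**Figure D4:**
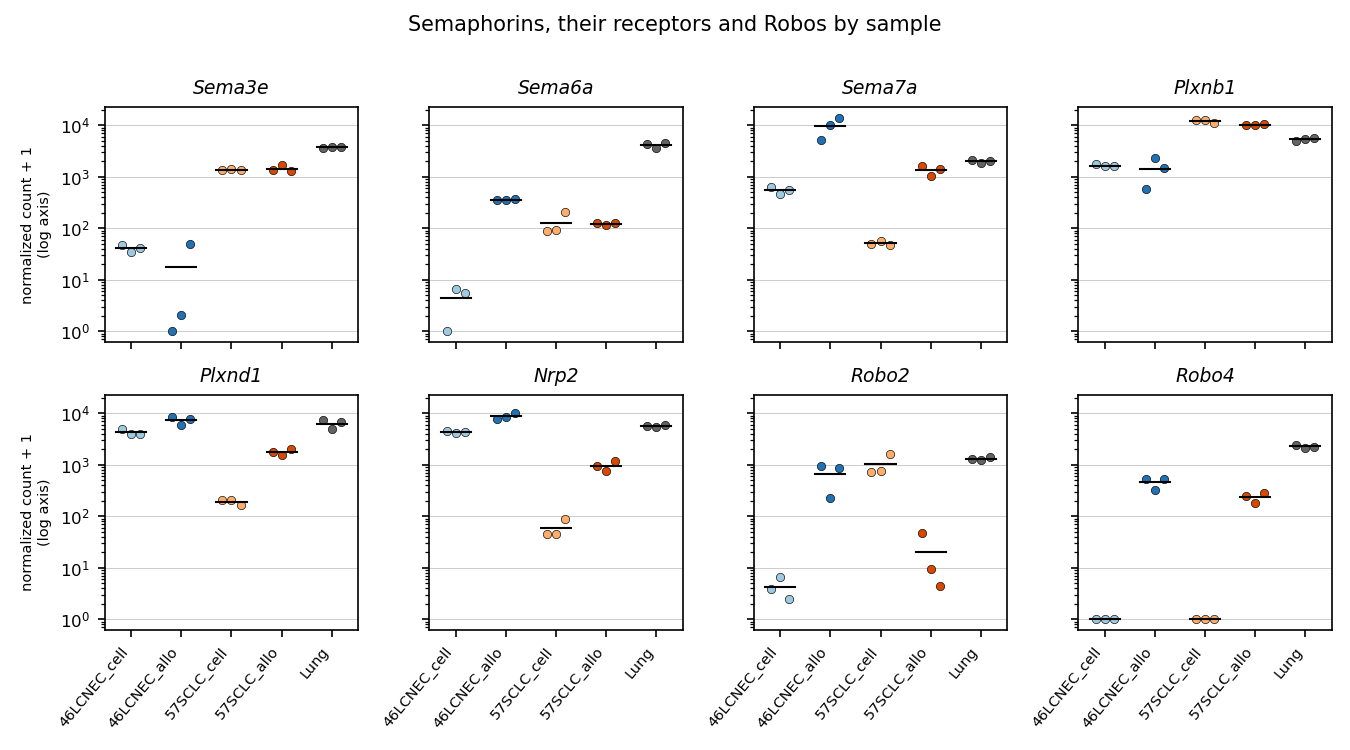
Normalized count + 1 (log axis) of 3 semaphorins, 3 semaphorin receptors and 2 Robos in each sample (points) of the 5 groups, with the group mean as a line. Sema3e and Plxnb1 were higher in 57SCLC than in 46LCNEC, Nrp2 and Plxnd1 were lower, Robo2 exchanged its order between cells and allografts, and Robo4 was at 0 in cultured cells.

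Slits, secreted repellents, were lower in tumors than in Lung except Slit1. Slit1 had 98.5, 89.4 and 90.7 normalized counts in 46LCNEC_cell, 74.2, 72.6 and 39.8 in 46LCNEC_allo, 205, 214 and 342 in 57SCLC_cell, 476, 394 and 569 in 57SCLC_allo and 2.24, 6.98 and 9.36 in Lung. Slit1, which is mainly known from the nervous system, was highest in 57SCLC, with log2 fold changes of 1.40 ± 0.21 in cells and 2.96 ± 0.31 in allografts (SE; adjusted p = 0.000456 and 0.000284, limma). Slit3 had 9.38, 16.6 and 6.15 normalized counts in 46LCNEC_cell, 527, 109 and 319 in 46LCNEC_allo, 59.5, 51.3 and 88.1 in 57SCLC_cell, 909.6, 783 and 1092 in 57SCLC_allo and 2283, 1944 and 2671 in Lung. It was higher in 57SCLC_cell by 2.58 ± 0.37 and at 1.80, not called, in allografts. Slit2 had 18.8, 15.5 and 15.4 normalized counts in 46LCNEC_cell, 149.7, 36.8 and 217 in 46LCNEC_allo, 3.82, 10.3 and 5.73 in 57SCLC_cell, 141, 218 and 251 in 57SCLC_allo and 1728, 1495 and 1792 in Lung. Slit2 was lower in 57SCLC_cell with a log2 fold change of -1.29, at no more than 18.8 normalized counts in either line, and the call was lost without 46LCNEC_cell replicates 1, 2 or 3 or 57SCLC_cell replicates 1 or 3 (log2 fold change -1.34 to -1.005, adjusted p = 0.0217 to 0.0322, limma).

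Among the Slit receptors, Robo1 had 1521, 1499.9 and 1402 normalized counts in 46LCNEC_cell, 2596, 4071 and 2451 in 46LCNEC_allo, 7745, 7573 and 8419.7 in 57SCLC_cell, 5745, 7154 and 6731 in 57SCLC_allo and 534, 501 and 478 in Lung. Robo1 was higher in 57SCLC without overlap, with 2.42 ± 0.07 in cells and 1.14 ± 0.21 in allografts (SE; adjusted p = 4.16e-08 and 0.00354, limma). The call in allografts was lost without 46LCNEC_allo replicate 1 or 57SCLC_allo replicates 1, 2 or 3 (log2 fold change 1.04 to 1.23, adjusted p = 0.0114 to 0.0191, limma). Robo2 had 2.81, 5.52 and 1.54 normalized counts in 46LCNEC_cell, 948, 229 and 847 in 46LCNEC_allo, 728, 756 and 1622 in 57SCLC_cell, 45.5, 8.49 and 3.40 in 57SCLC_allo and 1307, 1259.6 and 1392 in Lung. Robo2 was near 0 in cultured 46LCNEC and in the 57SCLC tumors and high in cultured 57SCLC, in the 46LCNEC tumors and in Lung, so that the order of the lines was opposite in cells and allografts, with 7.92 ± 0.43 in cells and -5.51 ± 0.95 in allografts (SE; adjusted p = 9.03e-07 and 0.00272, limma). The gene spans chr16:73688727-75244270 of GRCm39. In allografts the value was -6.46 to -4.76 with 1 sample left out, and the call was lost without 46LCNEC_allo replicate 1 or 57SCLC_allo replicate 2 (log2 fold change -5.32 to -5.15, adjusted p = 0.0126 to 0.015, limma). Robo4 had 0 normalized counts in each 46LCNEC_cell sample, 536, 322 and 525 in 46LCNEC_allo, 0 in each 57SCLC_cell sample, 242, 181 and 280.3 in 57SCLC_allo and 2438, 2110.4 and 2258 in Lung. Robo4, the Robo of endothelial cells, was at 0 in all 6 cell samples, and the allografts did not pass the test between lines, at -0.96 ± 0.27 (SE; adjusted p = 0.0214, limma).

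The difference between the lines itself changed with the setting for 27 of 64 members tested, 42.2% against 17.5% of all genes (10.8% positive and 6.78% negative), by an interaction term over the 12 cell and allograft samples. For 16 the value in allografts minus that in cells was positive and for 11 it was negative, while the median of all genes was 0.10. Of the 16 positive ones, 14 belonged to genes called lower in 57SCLC_cell with a smaller or no difference in allografts, such as Epha4 at 7.77 ± 0.86, Epha2 at 4.87 ± 0.33, Efna1 at 4.23 ± 0.57, Ephb4 at 3.78 ± 0.34 and Nrp2 at 3.10 ± 0.34. The most negative were Robo2 at -13.43 ± 1.12, Sema6a at -6.74 ± 0.83 and Ntn4 at -3.56 ± 0.52. With 1 sample left out Robo2 ranged over -14.38 to -12.68, the ends without 57SCLC_allo replicates 1 and 3, and was -14.09 without 46LCNEC_allo replicate 2. Epha4 ranged over 6.91 to 8.59, the ends without 46LCNEC_allo replicates 2 and 1. Sema6a was -5.87 without 46LCNEC_cell replicate 1, and Ntn4 was -4.15 without 46LCNEC_allo replicate 2. The adjusted p of these 8 lay between 6.71e-07 and 0.000285 (limma).

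Growth as a tumor went with higher levels of many guidance genes. In 46LCNEC, 19 of 63 members tested were higher and 5 lower in allografts than in cells, which is 38.1% against 22.8% of all genes (14.4% higher and 8.45% lower). In 57SCLC, 20 of 63 were higher and 3 lower, which is 36.5% against 16.6% (14.4% higher and 2.29% lower). Through 1 group only, 3 members passed the filter on low values in 46LCNEC and 5 in 57SCLC, which fixed their direction. They were Robo2, Robo4 and Sema6a in 46LCNEC, and Efna1, Epha4, Ephb1, Robo4 and Unc5c in 57SCLC. The share of all genes called in both lines was not counted. Robo4, Slit3, Unc5c, Sema4a, Sema5a, Sema6b and Sema7a were higher in the allografts of both lines, and in both Robo4 was not detected in cells and at least 164-fold higher in 46LCNEC_allo and at least 140.4-fold higher in 57SCLC_allo. Sema7a rose by 4.06 in 46LCNEC and 4.70 in 57SCLC on the log2 scale, and Sema5a by 5.38 and 3.06, the latter at 3.74 without 57SCLC_cell replicate 3 and its call lost without 57SCLC_cell replicate 1 or 57SCLC_allo replicates 1, 2 or 3 (log2 fold change 2.92 to 3.22, adjusted p = 0.0146 to 0.0209, limma). Genes higher in 57SCLC_allo but not called in 46LCNEC included Ephb4 at 4.48, Nrp2 at 4.09, Plxnd1 at 3.19, Nrp1 at 2.87 and Efna1 at 5.10. Epha2 fell in 46LCNEC, at -2.29, and rose in 57SCLC, at 2.58. Epha4 did the same at -3.52 and 4.26. In 46LCNEC the value of Epha4 was -4.33 without 46LCNEC_allo replicate 1 and -2.65 without 46LCNEC_allo replicate 2, and its call was lost without 46LCNEC_cell replicates 1, 2 or 3 or 46LCNEC_allo replicate 3 (log2 fold change -3.57 to -3.44, adjusted p = 0.0149 to 0.0275, limma). Robo2 rose in 46LCNEC, at 7.16, and fell in 57SCLC, at -6.27. The former was 7.82 without 46LCNEC_allo replicate 2, and the latter -7.22 and -5.52 without 57SCLC_allo replicates 1 and 3. In 46LCNEC the calls of Robo1, Epha3 and Efna2 were lost without 46LCNEC_cell replicates 1, 2 or 3 or 46LCNEC_allo replicate 2 (log2 fold change 0.78 to 1.03, adjusted p = 0.00078 to 0.0224, limma), without 46LCNEC_cell replicates 1, 2 or 3 or 46LCNEC_allo replicate 1 (log2 fold change 0.96 to 1.34, adjusted p = 0.0014 to 0.0279, limma) and without 46LCNEC_cell replicates 1, 2 or 3 or 46LCNEC_allo replicate 1 (log2 fold change 1.26 to 1.44, adjusted p = 0.0139 to 0.0232, limma), respectively.

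In both lines the endothelial, fibroblast, smooth muscle and pericyte, macrophage and leukocyte, and fat marker sums were higher in allografts than in cells. The fat sum rested mostly on Fabp4, at 366 to 2176 in 46LCNEC_allo and 194 to 309 in 57SCLC_allo. Adipoq and Plin1 were at most 10.2 and 2.27 in 57SCLC_allo. In 46LCNEC_allo they were 103 and 88.7 in replicate 1 and at most 1.11 in the others. Schwann cell marker sums were lower in allografts. They were 553 to 921 against 2625 to 2965 in cells for 46LCNEC, and 5769 to 7098 against 7363 to 9157 for 57SCLC. Skeletal muscle marker sums overlapped between cells and allografts. The 6 endothelial markers listed, Cdh5 and Pecam1 among them, summed to 5642 to 9746 normalized counts in 46LCNEC_allo and 2803 to 3864 in 57SCLC_allo, against 371 to 454 and 63.3 to 88.6 in the cells and 81774 to 93194 in Lung. In the cells Cdh5, Emcn and Tie1 were at the floor, and Kdr too in 57SCLC_cell. Fibroblast markers summed to 283706 to 589942 in 46LCNEC_allo, 23711 to 35969 in 57SCLC_allo, 29197 to 32077 in 46LCNEC_cell, 21.7 to 26.7 in 57SCLC_cell and 16578 to 19370.1 in Lung, with Col3a1, Dcn and Lum at the floor in 57SCLC_cell. Col1a1 and Col3a1 had 19769 to 22399 and 8049 to 8529 in cultured 46LCNEC, so that in this line they do not mark host cells alone. Macrophage and leukocyte markers were at 8021 to 14356 and 2751 to 4569.8 in the allografts and 329 to 383 and 229.8 to 257 in the cells. Their part in the higher guidance genes of allografts was not tested. In such bulk samples fewer cells of a type and less RNA per cell cannot be told apart.

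Against Lung, 11 of the 20 semaphorins were lower in both allografts, as were Robo4, Nrp1 and Efnb2. Of 65 members tested, 13 were higher and 24 lower in 46LCNEC_allo, 56.9% against 35.6% of all genes (13.4% higher and 22.1% lower), and of 66 tested 16 were higher and 32 lower in 57SCLC_allo, 72.7% against 45.8% (18.9% higher and 26.9% lower). Through 1 group only, 2 of these 65 and 5 of these 66 passed the filter on low values, which fixed their direction. They were Slit1 and Unc5d in 46LCNEC_allo, and Epha7, Sema3d, Slit1, Dcc and Unc5d in 57SCLC_allo. Both comparisons used the same 3 Lung samples, and their values are therefore set side by side only. The share of all genes called in both comparisons, alike or opposed, was not counted. The 6 members higher in both were Efna5, Ephb2, Slit1, Robo1, Unc5b and Plxna3. Ephb2 had 2791, 2749 and 2694 normalized counts in 46LCNEC_cell, 3962, 3858 and 3414 in 46LCNEC_allo, 4532, 4437 and 5614 in 57SCLC_cell, 4733, 5737 and 6525 in 57SCLC_allo and 144, 169.5 and 104 in Lung. All 12 tumor and cell samples exceeded Lung in Ephb2, by 4.77 ± 0.19 in 46LCNEC_allo and 5.35 ± 0.19 in 57SCLC_allo on the log2 scale (adjusted p = 9.31e-06 and 2.25e-07, limma). Plxna3 had 1581, 1348 and 1322 normalized counts in 46LCNEC_cell, 1791, 2702 and 1976 in 46LCNEC_allo, 2269, 2250.2 and 2359 in 57SCLC_cell, 2652, 2509.9 and 2287 in 57SCLC_allo and 315, 317 and 321 in Lung. Plxna3 was higher by 2.74 and 2.96, Robo1 by 2.55 and 3.69, Slit1 by 3.24 and 6.20, and Unc5b by 2.71 and 1.33. Efna5 had 3831, 5043 and 4633 normalized counts in 46LCNEC_cell, 2322, 1364 and 2469 in 46LCNEC_allo, 1329, 1194 and 2870.5 in 57SCLC_cell, 1738, 2659 and 1784 in 57SCLC_allo and 336, 516 and 421 in Lung. The ephrin Efna5 was higher than Lung by 2.25 and 2.27.

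The 21 members lower in both allografts than in Lung included 7 class 3 semaphorins, Sema3a to Sema3g. Sema3g had 107, 91.6 and 105 normalized counts in 46LCNEC_cell, 325, 153 and 242 in 46LCNEC_allo, 244, 295 and 232 in 57SCLC_cell, 345, 378 and 266 in 57SCLC_allo and 12419.8, 12059 and 12056 in Lung. Sema3g, a semaphorin of arteries, was at -5.73 ± 0.26 and -5.22 ± 0.13 on the log2 scale (SE; adjusted p = 1.24e-05 and 5.77e-08, limma). Sema3d had 14.1, 4.41 and 9.99 normalized counts in 46LCNEC_cell, 11.9, 5.26 and 21.02 in 46LCNEC_allo, 0.545, 0 and 0 in 57SCLC_cell, 4.79, 7.08 and 9.08 in 57SCLC_allo and 299.7, 386 and 352 in Lung. Sema3d was at most 21.02 in any tumor or cell sample, with -4.83 and -5.47. Sema3c had 11196, 18043 and 12705 normalized counts in Lung and was at -4.44 and -4.86. Sema3a was at -1.02 and -5.85, and its call in 46LCNEC_allo was lost without 46LCNEC_allo replicates 1 or 2 or Lung replicates 1, 2 or 3 (log2 fold change -1.13 to -0.82, adjusted p = 0.00577 to 0.0249, limma). Sema3e was at -9.66 and -1.39, and the former was -8.55, -9.07 and -11.37 without 46LCNEC_allo replicates 1, 2 and 3. With all 15 samples in 1 model the call of Sema3e in 57SCLC_allo was lost (adjusted p = 0.204, limma).

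Outside the semaphorins, Epha7 had 0, 0 and 0.769 normalized counts in 46LCNEC_cell, 1.32, 0 and 11.1 in 46LCNEC_allo, 0.545, 1.206 and 1.04 in 57SCLC_cell, 4.79, 0 and 1.13 in 57SCLC_allo and 345, 354 and 428 in Lung. Epha7 was not detected in 57SCLC_allo, at least 75.99-fold below Lung, and Unc5d was not detected in 46LCNEC_allo, at least 42.6-fold below Lung. Epha1 had 46.9, 54.1 and 43.1 normalized counts in 46LCNEC_cell, 91.4, 218 and 112 in 46LCNEC_allo, 66.6, 93.5 and 91.2 in 57SCLC_cell, 110.1, 65.1 and 53.3 in 57SCLC_allo and 1144, 918 and 1036 in Lung. Epha1 was at -2.97 and -3.81, and 36.9% of its exon bases overlap Zyx on the opposite strand. Robo4 was at -2.33 and -3.29, Nrp1 at -1.51 and -3.31, and Efnb2 at -2.16 and -3.61. Efna1 and Efnb1 were at -1.32 and -1.05 in 46LCNEC_allo and -4.40 and -3.09 in 57SCLC_allo, with the calls in 46LCNEC_allo lost without Lung replicates 1, 2 or 3 (log2 fold change -1.35 to -1.28, adjusted p = 0.0109 to 0.0132, limma) and without 46LCNEC_allo replicates 1 or 3 or Lung replicates 1, 2 or 3 (log2 fold change -1.08 to -0.78, adjusted p = 0.0066 to 0.0373, limma), respectively. Slit2 was at -3.96 and -3.07, and Slit3 at -3.10 and -1.31. Without 46LCNEC_allo replicate 2 the former values were -3.20 and -2.47. With all 15 samples in 1 model the call of Slit3 in 57SCLC_allo was lost (adjusted p = 0.0197, limma). In 46LCNEC_allo the Slit2 call was lost without Lung replicate 1 (log2 fold change -3.93, adjusted p = 0.0103, limma) and the Slit3 call without Lung replicates 1, 2 or 3 (log2 fold change -3.22 to -2.99, adjusted p = 0.0115 to 0.0145, limma). The endothelial marker sums of the allografts were below those of Lung, with the values given for host cells, and their part in these differences was not tested.

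Of the members tested in both allografts, 4 took opposite directions against Lung. Epha3 was at 2.91 in 46LCNEC_allo and -1.79 in 57SCLC_allo, Efna4 at 2.01 and -1.20, Unc5c at 1.48 and -4.41, and Sema5a at 1.31 and -4.69. With all 15 samples in 1 model the call of Sema5a in 46LCNEC_allo was lost (adjusted p = 0.0169, limma). The Efna4 call in 57SCLC_allo was lost without 57SCLC_allo replicates 2 or 3 or Lung replicates 2 or 3 (log2 fold change -1.15 to -1.06, adjusted p = 0.0129 to 0.0206, limma). Epha5, Epha8, Ephb6, Efna2, Efnb3, Unc5a, Plxna2, Sema4g and Sema5b were called higher than Lung in 57SCLC_allo and not called in 46LCNEC_allo, with Unc5a the highest at 5.25. The mean of 46LCNEC_allo was also above that of Lung for several of them, by 2.73-fold for Ephb6 against 3.37-fold in 57SCLC_allo, 2.48-fold for Epha5, 2.43-fold for Sema5b and 2.11-fold for Unc5a. Dcc, which was untested in 46LCNEC_allo, was higher than Lung in 57SCLC_allo at 7.55. Ephb1, Ntn3 and Sema7a were called higher than Lung in 46LCNEC_allo and not called in 57SCLC_allo, at 3.64, 1.11 and 2.18, the Ntn3 call being lost without Lung replicates 2 or 3 (log2 fold change 1.05 to 1.12, adjusted p = 0.0137 to 0.0152, limma) and the Sema7a call without Lung replicate 2 (log2 fold change 2.13, adjusted p = 0.0103, limma). Among cultured cells, 13 of 65 members tested were higher and 31 lower in 46LCNEC_cell than in Lung, with 55.6% of all genes called (20.6% higher and 35% lower), and 16 of 66 were higher and 36 lower in 57SCLC_cell, with 53.8% called (21.1% higher and 32.7% lower). Through 1 group only, 6 of these 65 and 10 of these 66 passed the filter on low values, which fixed their direction, Robo4 among them in both. Robo4 was not detected in either line, at least 807-fold and at least 1359-fold below Lung.

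To compare genes with each other, normalized counts were divided by the exon length of the gene in kb. Among the netrins and their receptors Unc5b led in 46LCNEC_cell at 1743 ± 148 normalized counts per kb, while Ntn4 led in 57SCLC_cell at 2048 ± 282, in 57SCLC_allo at 1770.3 ± 145 and in Lung at 1307 ± 80.3. In 46LCNEC_allo Unc5b at 1460.3 ± 516 and Ntn1 at 1393 ± 299 per kb overlapped. The leading Eph receptor was Epha2 in 46LCNEC_cell at 2020.0 ± 83.4 per kb, Ephb4 in 46LCNEC_allo at 1070.4 ± 379, Ephb3 in 57SCLC_cell at 734 ± 118 and Ephb4 in Lung at 1225 ± 72.00. In 57SCLC_allo Ephb2 and Ephb3 did not differ beyond their spread, at 447 ± 70.96 and 446 ± 22.1. Efna5 led the ephrins in 46LCNEC_cell at 857 ± 117 and in 57SCLC_allo at 392 ± 98.7. The leading semaphorin was Sema3f in 46LCNEC_cell at 341 ± 37.5, Sema7a in 46LCNEC_allo at 2960.1 ± 1338, Sema4c in 57SCLC_cell at 252 ± 27.8 and Sema3g in Lung at 2677 ± 45.99. Plxnb2 led the plexins in 46LCNEC_cell at 1957 ± 146 and Plxnb1 in 57SCLC_cell at 948 ± 88.2 and 57SCLC_allo at 789 ± 17.98. Robo1 led the Robos in every tumor and cell group, and Robo4 in Lung at 428 ± 30.97 per kb.

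Genes that act downstream of or beside these receptors were followed with a list of 52, which held srGAPs, collapsin response mediators (Dpysl and Crmp1), repulsive guidance molecules, L1-family adhesion molecules and others. In cells 48 were tested, 15 higher and 17 lower in 57SCLC_cell, with 46.1% of all genes called. In allografts 49 were tested, 12 higher and 13 lower in 57SCLC_allo, with 30.4% of all genes called. Against Lung 11 of 47 were higher and 13 lower in 46LCNEC_allo, with 35.6% of all genes called, and 16 of 49 were higher and 13 lower in 57SCLC_allo, with 45.8% called. In allografts against cells, 6 of 43 were higher and 2 lower in 46LCNEC, with 22.8% of all genes called, and 10 of 49 were higher and 1 lower in 57SCLC, with 16.6% called. The interaction term was positive for 8 and negative for 3 of 49, with 17.5% of all genes called. Met, the receptor of hepatocyte growth factor and a partner of plexins of the B class, had 2520.1, 2474 and 2756 normalized counts in 46LCNEC_cell, 3017, 17279 and 30719.6 in 46LCNEC_allo, 0, 0.603 and 0 in 57SCLC_cell and 31.1, 58.04 and 82.8 in 57SCLC_allo. In allografts its log2 fold change was -7.75 ± 0.84 (SE; adjusted p = 0.000349, limma). The adhesion molecule Chl1 had 2269, 2233 and 2696 in 57SCLC_cell and 0 in every 46LCNEC_cell sample. Dock1, an exchange factor for Rac1, had 1751, 2249 and 1878 in 46LCNEC_cell and 0, 1.206 and 0 in 57SCLC_cell. The response mediators Dpysl5 and Dpysl4, which act in growth cones, had 4859, 6004 and 5363 and 742, 721 and 606 in 57SCLC_allo against 6.62, 3.16 and 7.74 and 0, 0 and 16.6 in 46LCNEC_allo. In each setting these genes supplied the 3 largest fitted differences among the called genes of the list (limma).

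Epha6, Epha10, Robo3 and Ntn5 stayed under the filter in every comparison, with at most 18.8 normalized counts in any sample. Unc5d, Epha7 and Sema3d were tested against Lung but not between the lines. A strand setting of the counting was not given in the sources used here, so that reads of genes overlapping on opposite strands cannot be told apart. Besides the pairs named, this concerned Efna3, whose exon bases overlap Gm15998 over 30.7%, Sema4c with D430040D24Rik over 16.8% and Ephb6 with Trpv6 over 14.7%.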

How the data were processed

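Poly-A selected RNA of 15 samples in 5 groups was sequenced in paired-end reads. Alignment was to GRCm39, with Rbowtie2, and reads per gene were obtained by featureCounts of Rsubread with a GENCODE annotation. The values the authors deposited are signal values, one for each gene and sample, namely read numbers scaled by DESeq2 size factors. The strand setting and the treatment of reads with several alignments were not given in the sources used here. In every sample 100% of the deposited values were whole multiples of 1 step to within 0.01, and dividing by that step gave back the reads, between 9480244 and 44876572 per sample.

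The test planned for the comparisons assumed raw counts. Because the values had been normalized, limma 3.58.1 (R 4.3.3) was applied to the log2 of the normalized count after adding 1, with its trend option, and p-values were adjusted by the Benjamini-Hochberg method over all genes tested. An interaction term over 12 samples compared the line difference between settings. edgeR 4.0.16 and DESeq2 1.42.0 on the recovered reads, TMM or library-size scaling, pseudocounts of 0.1 and 5, no filter, an adjusted p of 0.05, all 15 samples in 1 model, a replicate block and leaving out each sample were alternatives; in the last, 2 samples had to pass the filter, a choice made after seeing the data. On simulated reads, limma, edgeR and DESeq2 were tested for a comparison of 1 pair of groups, and limma and edgeR for the interaction. The simulation gave all groups the same spread between samples, and the other alternatives were not simulated. Gene positions and exon lengths came from release M39 of the GENCODE annotation, and promoters from RefSeq for GRCm38.p6. Tables and figures were made with Python 3.11.15, pandas 2.3.3 and matplotlib 3.10.9.

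The members and lists were chosen with earlier results of these data known. Named in each family were at most 6 members (8 semaphorins) called between the lines with a mean of at least 50 in 1 group, by the larger log2 fold change, and at most 4 called by the interaction or against Lung in both allografts. Other members are named to account for all 70. Some alleles and genes are not reported here.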

Additional observations from a re-analysis of the deposited data

Results flagged for a closer look

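For 27 members the difference between 57SCLC and 46LCNEC was not the same in allografts as in cells, by the interaction term of limma at an adjusted p of at most 0.01. In these values, the log2 difference in allografts minus that in cells, a negative number means that 57SCLC stood lower relative to 46LCNEC in allografts than in culture. The 11 negative values were -13.43 for Robo2, -6.74 for Sema6a, -3.56 for Ntn4, -3.02 for Ntn3, -2.84 for Plxnc1, -2.22 for Sema6d, -2.01 for Sema3a, -1.60 for Efna2, -1.59 for Ntn1, -1.29 for Sema3c and -1.28 for Robo1. The 16 positive values were 1.17 for Neo1, 1.212 for Efnb2, 1.23 for Sema6c, 1.49 for Plxna1, 1.56 for Slit1, 1.68 for Sema4g, 2.07 for Ephb1, 2.11 for Epha8, 2.29 for Nrp1, 2.39 for Plxnd1, 3.10 for Nrp2, 3.44 for Sema4f, 3.78 for Ephb4, 4.23 for Efna1, 4.87 for Epha2 and 7.77 for Epha4. With 1 sample left out the values ranged over -14.38 to -12.68 for Robo2, -7.22 to -5.87 for Sema6a, -4.15 to -3.20 for Ntn4 and 6.91 to 8.59 for Epha4. For 7 of these members the call was lost in part of the 12 fits that left out 1 sample. It was lost in 9 for Ephb1, in 7 each for Sema3a and Slit1, in 6 each for Sema4g and Sema6d, and in 2 each for Efnb2 and Epha8. Endothelial and fibroblast marker sums differed between the allografts of the lines as well as between allografts and cells, and their part in these values was not tested.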

How the results depend on the processing

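The direction of every called member stayed the same under each alternative run in all 9 comparisons. On the recovered reads edgeR called 4118 genes higher and 3682 lower in 57SCLC_cell, and 2749 and 2448 in 57SCLC_allo, against 4043 and 3756, and 2821 and 2491, with limma. Between the cultured lines the numbers of higher and lower members were 21 and 29 with a replicate block in place of 21 and 30. Cells of the lines with the same replicate letter did not deviate together, with correlations of 0.055, -0.064 and 0.0049 for the 3 letters, so that the letters are not taken as a pairing. The number of members higher in 57SCLC_allo than in 46LCNEC_allo was 11 and lay between 5 and 12 with 1 sample left out, the lowest without 57SCLC_allo replicate 1. The number lower in 46LCNEC_allo than in 46LCNEC_cell was 5, became 8 with all 15 samples in 1 model, and lay between 3 and 7 with 1 sample left out, at 3 without 46LCNEC_cell replicates 1, 2 or 3. These fits rest on fewer samples. Scaling by library size alone moved the median log2 fold change of all genes by 0.24 in cells and 0.27 in allografts, and by 0.21 and 0.24 for 57SCLC_allo and 57SCLC_cell against Lung. TMM factors moved it by 0.13 and 0.12 for 46LCNEC_cell and 57SCLC_cell against Lung, and edgeR by 0.11 for 46LCNEC_allo against Lung. With pseudocounts of 0.1 and 5 the log2 fold change of Dcc in allografts was 13.34 and 7.70 in place of 10.02. Outside the fits that left out a sample, calls were lost under at least 1 alternative for Plxna1, Sema4g, Sema6d and Slit2 between the lines in cells and for Plxna2, Sema3f and Sema6a in allografts. Against Lung they were lost for Efnb1, Plxnb1, Sema3a, Sema4a and Sema5a in 46LCNEC_allo, for Efna4, Plxna4, Sema3e and Slit3 in 57SCLC_allo, for Plxnb3, Plxnc1 and Sema3e in 57SCLC_cell and for none in 46LCNEC_cell. In allografts against cells they were lost for Epha4 and Robo1 in 46LCNEC and Plxna4 in 57SCLC, and in the interaction for Ephb1 and Slit1.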
